A study of Mus musculus with 16 samples.

Results

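In a mouse erythroid line, a set of genes had mean levels that stayed within a fixed margin of the untreated level up to 100 nM beta-estradiol and lay well below it at 200 nM. These genes number 335 of 10080 genes tested, in a count table of 23410 gene symbols. They were chosen from their own mean log2 CPM (counts scaled to a common library total, with a prior count of 2): the means at 25, 50, 75 and 100 nM each lay within 0.4 of the mean at 0 nM, the mean at 200 nM lay at least 0.8 below it, and the 0 nM level was at least 10 CPM. All 335 had passed the filter on low counts, since the rule was applied after it. The values at 0, 25, 50, 75, 100 and 200 nM therefore chose the genes, and they are given below as a description, without a test. The doses of 12.5 and 150 nM played no role in the choice, and every test below compares those 2 doses. They lie between doses that the rule did use, so the choice itself made a fall from 12.5 to 150 nM likely.

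The cells were G1E-ER4, a mouse erythroid line derived from embryonic stem cells that lack the transcription factor GATA1, and that carries a fusion of GATA1 with the hormone-binding domain of the estrogen receptor. Beta-estradiol brings the fusion protein into action, so that the dose sets how much GATA1 can act. Cells received 0, 12.5, 25, 50, 75, 100, 150 or 200 nM, with 2 libraries at each dose and 16 in all, in a serum medium that held stem cell factor and erythropoietin. All groups, the 0 nM control included, carried the fusion protein and received the same growth factors. Cells without the fusion protein were not analysed here, so effects of beta-estradiol alone and of GATA1 cannot be told apart. The labels do not give the length of exposure, the data come from 1 line, and nothing says that the 2 replicates were separate cultures. The p-values then measure the spread between these samples, which may be technical. Libraries were made with Smart-seq2, a full-length method that keeps no strand and no molecular identifiers, and held 9393156 to 15802510 counts.

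As background, a red cell precursor divides a limited number of times while it fills with haemoglobin, and then stops copying its DNA, condenses its nucleus and loses it. Copying DNA needs the MCM helicase, which is loaded onto origins with the help of Cdt1, the primase and polymerases that build the new strands, the sliding clamp Pcna that holds polymerases on the template, and a supply of deoxynucleotides. Many of these genes are known targets of E2F transcription factors, which work in pairs with DP proteins such as Tfdp1. Growing precursors also depend on splicing, transport through nuclear pores, charged tRNAs and mitochondria that make their own proteins.

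All 9 erythroid markers in the table were present, and their sum went from 2072 to 2092 CPM at 0 nM to 30600 to 31120 CPM at 200 nM. The sum of 15 myeloid markers in the table was at most 5.34 CPM in any library, with 7 of them at 0 in all libraries. That of 12 lymphocyte markers was at most 0.49 CPM, with 6 at 0 throughout. Megakaryocyte markers summed to 18.2 to 19.1 CPM at 0 nM and 629 to 647 CPM at 200 nM, with 3 of 12 at 0 in all libraries. The sums were 38.8 to 39.4 and 8.90 to 9.03 CPM for mast cell and basophil markers, also with 3 of 12 at 0 throughout. Few genes carried these last sums. In replicates 1/2 at 200 nM Itgb3 read 412/396 CPM and Tubb1 193/189, while Gp1ba read 7.48/7.94 at 0 nM and 8.48/7.63 at 200 nM. Of the mast cell list Il1rl1 went from 35.7/35.9 to 0.276/0.424 CPM, while Srgn rose from 1.35/0.946 to 7.56/6.61. The ribosomal RNA precursor Rn45s took 9.53 to 9.61% of counts at 0 nM and 14.6 to 15.3% at 200 nM. The part of these shifts in the results below was not tested. In bulk RNA, fewer cells in a state and less RNA per cell cannot be told apart.

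Summed over all 335 genes, the share of counts was 5.97% in both 0 nM libraries. In replicates 1/2 it was 6.03/6.02% at 12.5 nM, 5.89/5.85% at 25 nM, 5.72/5.68% at 50 nM, 5.06/5.06% at 75 nM, 4.39/4.39% at 100 nM, 3.26/3.23% at 150 nM, and 2.28/2.25% with 200 nM. The 2 libraries of a dose differed by far less than the steps from 75 nM on. Relative to 0 nM, the median gene of the set differed by 0.026 on the log2 scale at 12.5 nM, 0.016 at 25 nM, -0.0093 at 50 nM, -0.14 at 75 nM, -0.29 at 100 nM, -0.62 at 150 nM and -0.99 at 200 nM. At 200 nM 150 of the 335 stood at least 1 log2 unit, or 2-fold, below 0 nM.

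The values of most of these genes went against calling them repressed only at high doses. At 100 nM 323 of the 335 already stood below 0 nM, 251 of them by more than 0.2 and 152 by 0.3 to 0.4, against a limit of 0.4. The 83 genes within 0.2 of 0 nM at 100 nM, together with 1 gene more than 0.2 above it (Osm), came nearest to that description. The 12 genes above 0 nM at 100 nM were Mcm3, Mcm6, Prim2, Rad54l, Tk1, Ung, Osm, Pask, Tmem194b, Hist1h2ab, Lrrc20 and Phlpp1, of which the last 3 were picked out after their values were seen. The first 6 of these act in DNA copying, nucleotide supply or DNA repair. These values are on the TMM scale. When libraries were scaled by library size alone, 334 of the 335 stood below 0 nM at 100 nM. Osm then stood above it at 0.067, and Mcm6 and Mcm3 stood at -0.17 and -0.18. The set is called the late-falling genes from here on.

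**Figure D1:**
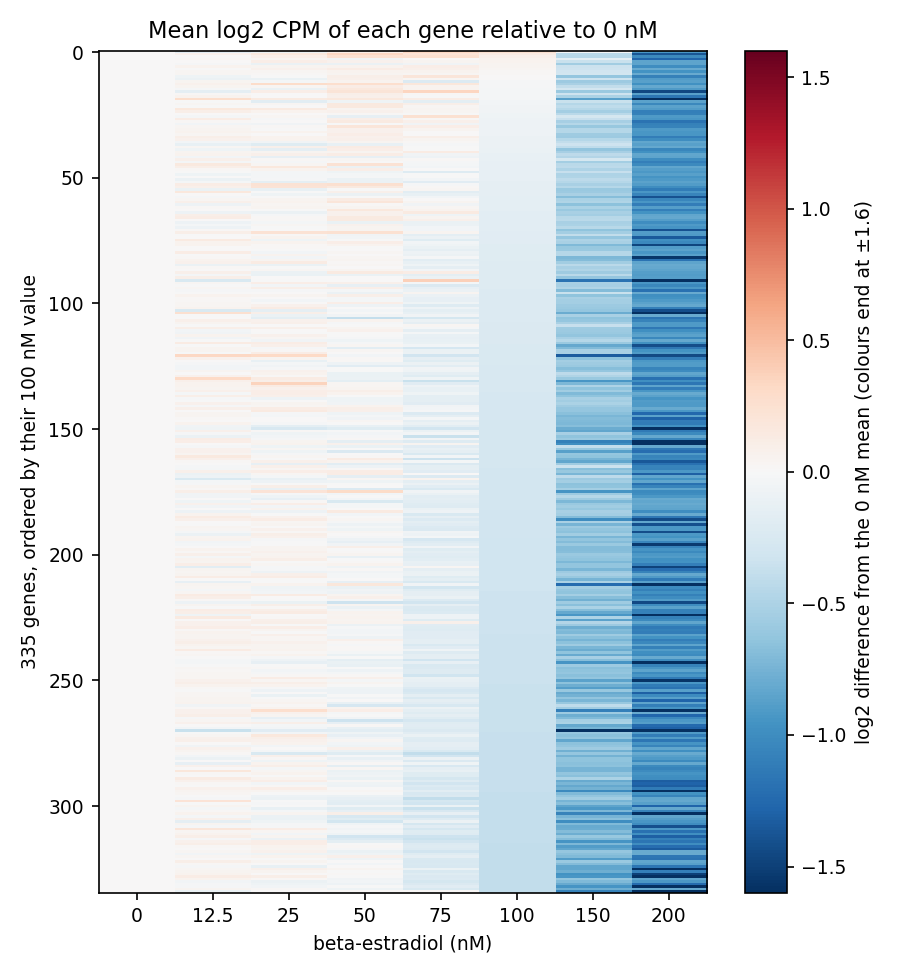
Mean log2 CPM of each of the 335 late-falling genes at 8 doses of beta-estradiol, relative to its 0 nM mean, with genes (rows) ordered by their 100 nM value. The 100 nM column runs from 0.25 at the top to -0.40 at the bottom, and the 200 nM column lies at -0.80 or lower throughout, both by the rule.

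Genes lay close on either side of the limits. Just inside the 100 nM limit stood Pla2g12a, Clpb and Fkbp3, each at -0.40 (-0.3984, -0.3977 and -0.3975), and just outside it Eif2b1, Ppp2r2a and Cct8 (-0.40004, -0.4003 and -0.4004). At the 200 nM limit Cryz, Smchd1 and Mcm3 were inside (-0.8009, -0.8012 and -0.8012), and Lrr1 and Eri3 outside (-0.7974 and -0.7955). A further 319 genes held the same plateau and stood 0.6 to 0.8 below 0 nM at 200 nM. Of 1573 genes at least 0.8 lower at 200 nM and at 10 CPM or more at 0 nM, 1229 had already passed the limit at 100 nM. Another 5 stood over 0.4 above 0 nM at a dose from 25 to 100 nM, and 4 stood over 0.4 below it at 25, 50 or 75 nM only. The late-falling genes are the remaining 335 of the 1573.

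Membership also depended on how the libraries were scaled. TMM, the trimmed mean of M-values, assumes that most genes do not move, and its factors went from 1.10 at 0 nM to 0.84 to 0.85 at 200 nM. With library size alone the median of all tested genes shifted to -0.18 at 100 nM and -0.36 at 200 nM, and that of the late-falling genes at 100 nM was -0.48 in place of -0.29. The rule then gave 428 genes, of which 92 were shared with the 335 (27.5% of the late-falling genes and 21.5% of the 428). DNA replication genes were 17 of those shared, out of 20 late-falling ones. Of the splicing genes 2 of 14 were shared, and of the mitochondrial ribosome and import genes 0 of 9. Changes are given relative to the TMM scale below.

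**Figure D2:**
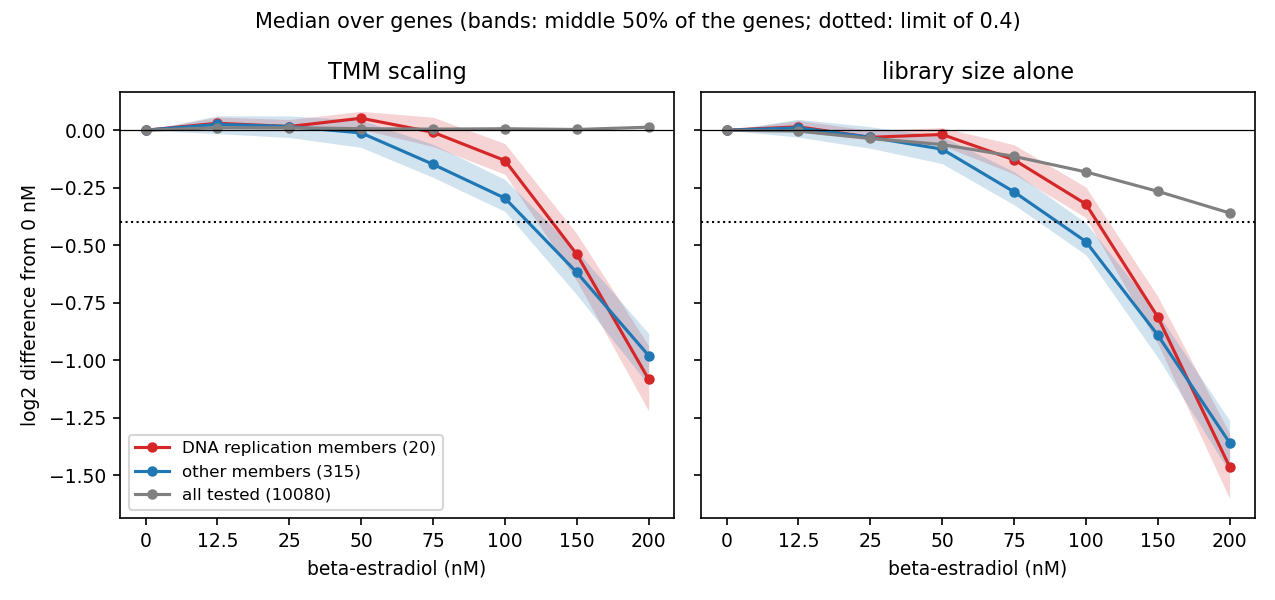
Median log2 difference from 0 nM by dose for the 20 DNA replication genes of the set, its other 315 genes and all 10080 genes tested, under TMM scaling (left) and library size alone (right), with bands from the lower to the upper quartile. At 100 nM the replication genes stood at -0.13 under TMM and -0.32 under library size, the other late-falling genes at -0.30 and -0.48.

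The 2 doses outside the rule gave the test. Since they lie between doses that the rule used, a fall between them was likely from the choice alone. The counts below describe that fall and are no independent support for the set. At 150 nM 330 of the 335 genes were lower than at 12.5 nM at an adjusted p under 0.05 (edgeR's quasi-likelihood test over all 16 libraries, adjusted over the 10080 genes), 0 were higher and 5 passed in neither direction. Among all genes tested 36.4% were lower and 38.1% higher, and 43.0% were lower among the genes of at least 10 CPM at 0 nM. The median difference was -0.64 (range -1.71 to 0.16), against 0.01 for all genes tested, and 15 genes were lower by 1 log2 unit or more. In 333 of the 335 both 150 nM libraries lay below both 12.5 nM libraries, which 42.5% of all tested genes did. All 335 had a 12.5 nM mean within 0.4 of 0 nM, as had 99.8% of genes of at least 10 CPM. Of the set 225 stood above their 0 nM mean there, which was not particular to it. The median difference at 12.5 nM was 0.026 for the set, 0.016 for genes of at least 10 CPM and 0.011 for all tested. With library size alone 333 of the 335 were lower, while all tested genes split into 4939 lower and 2807 higher, in place of 3669 and 3839.

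**Figure D3:**
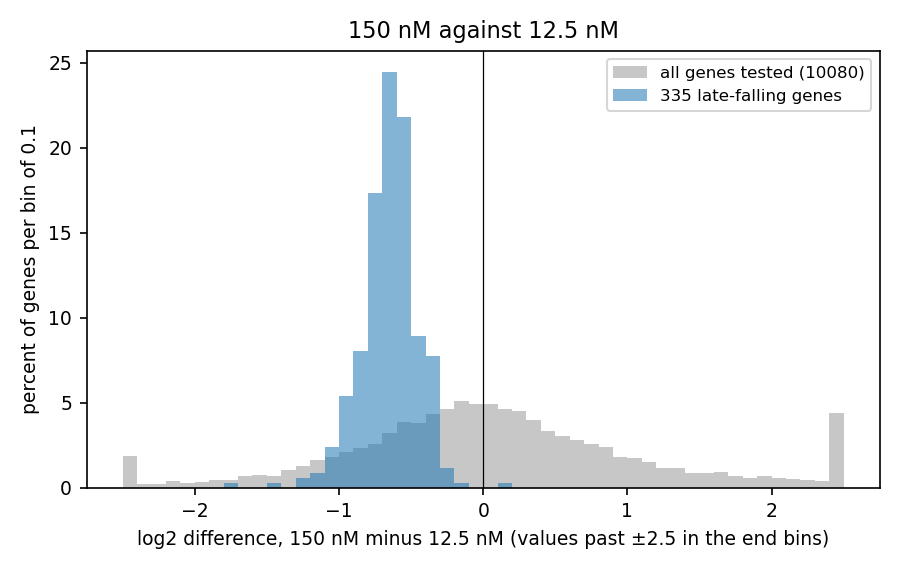
Log2 difference between 150 and 12.5 nM for the 335 late-falling genes (blue) and all 10080 genes tested (grey), as the percent of each set per bin of 0.1. The late-falling genes have a median of -0.64 and all genes one of 0.01, and only Osm of the late-falling genes lies above 0.

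The set held 3.32% of all genes tested and 4.67% of those of at least 10 CPM at 0 nM, which the rule requires. The replicative machinery had the highest share of the fixed lists, with 20 of its 48 tested genes in the set (41.7%). All 20 were lower at 150 than at 12.5 nM, with a median of -0.55, as were 330 of all 335. The rule made such a fall likely, so this count is a description only. At 100 nM 16 of the 20 stood within 0.2 of 0 nM, against 83 of the 335, with a median of -0.13. At 200 nM their median was -1.08. Of the remaining 28 tested replication genes, 18 were lower, 6 higher and 4 passed in neither direction, or 24, 2 and 2 with library size alone. Under TMM 36.4% of all genes tested were lower and 38.1% higher.

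The helicase subunits Mcm2, Mcm3, Mcm4 and Mcm6 were among the most abundant transcripts of the set. Levels of single genes are written below as replicate 1/replicate 2. Mcm6 stood at 1666/1668 CPM without beta-estradiol, 1691/1713 at 12.5 nM, 1680.3/1734 at 25 nM, 1782/1699 at 50 nM, 1752/1728 at 75 nM, 1672/1699 at 100 nM, 1354/1338 at 150 nM, and 866/850.4 with 200 nM. The 12 libraries up to 100 nM ran from 1666 to 1782 CPM, above both libraries at 150 nM and both at 200 nM. The difference of Mcm6 between 150 and 12.5 nM was -0.34 ± 0.027 (SE), adjusted p = 1.98e-15. Its gene lies at chr1:128331590-128359664, minus strand (GRCm38, GENCODE).

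Mcm3 stood at 1359/1375 CPM without beta-estradiol, 1377/1416 at 12.5 nM, 1367/1391 at 25 nM, 1399/1410.3 at 50 nM, 1411/1394 at 75 nM, 1383/1377 at 100 nM, 1125/1099 at 150 nM, and 807/762 with 200 nM. Its 4 libraries at 150 and 200 nM were the lowest of the 16, and the test gave -0.33 ± 0.028 (SE), adjusted p = 1.41e-14. Mcm2 fell from 1151 ± 32 CPM (SD, n = 2) at 12.5 nM to 806 ± 23.2 at 150 nM and Mcm4 from 749.9 ± 0.0245 to 552 ± 7.24. The log2 differences were -0.51 ± 0.029 (SE), adjusted p = 4.06e-21 for Mcm2 and -0.44 ± 0.031 (SE), adjusted p = 1.82e-17 for Mcm4. The other two subunits of the hexamer, Mcm5 and Mcm7, missed the 200 nM limit with -0.65 and -0.57, and were lower at 150 nM as well (-0.32 and -0.19, adjusted p = 1.69e-13 and 1.83e-07).

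Factors that license and fire origins were in the set too. Cdt1, which brings the helicase to origins, stood at -0.18 at 100 nM and -1.34 at 200 nM, and the kinase subunit Cdc7, which triggers origins, at -0.21 and -0.88. Mcm10, needed to start the loaded helicase, stood at -0.20 and -1.18. All fell between 12.5 and 150 nM, by 0.63, 0.64 and 0.76 on the log2 scale (adjusted p = 1.66e-18, 2.17e-09 and 1.33e-10). Dbf4, the activating partner of Cdc7, and Cdc6, the partner of Cdt1 in loading, went the other way and were higher at 150 nM (0.62 and 0.67, adjusted p = 1.13e-05 and 1.20e-19).

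Of the enzymes that build DNA, the set held Pola1, Pola2 and Prim2 of the polymerase alpha-primase complex, Pold3 and Pole2, accessory subunits of polymerases delta and epsilon, and the clamp Pcna with the clamp loader subunit Rfc3. Pcna stood at 177/174 CPM without beta-estradiol, 179/176 at 12.5 nM, 169/183 at 25 nM, 199/188 at 50 nM, 179.8/192 at 75 nM, 167/165 at 100 nM, 121/122 at 150 nM, and 77.7/76.9 with 200 nM. Its libraries up to 100 nM spanned 165 to 199 CPM and did not overlap with those at 150 nM. The test gave -0.54 ± 0.047 (SE), adjusted p = 2.12e-14 for Pcna. Pola1, Pola2 and Prim2 fell by 0.52, 0.90 and 0.32 between 12.5 and 150 nM, Pold3 and Pole2 by 0.44 and 0.74, and Rfc3 fell by 0.49. Pcna lies at chr2:132249162-132253314, minus strand. Pola2 had the largest share of its 200 nM difference already at 150 nM among the replication genes (73.2%) and Mcm6 the smallest (32.2%). Pold1 and Pold2, the catalytic and a structural subunit of polymerase delta, were left out because they had passed the 100 nM limit, with -0.55 and -0.75.

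Fork and chromatin partners completed the list: Wdhd1, which ties the helicase to polymerase alpha, the fork protection subunit Tipin, the single-strand binding subunit Rpa3, the nuclease-helicase Dna2, the histone chaperone subunit Chaf1b and Uhrf1, which guides DNA methylation to new strands. Uhrf1 stood at 448/427 CPM without beta-estradiol, 442/448 at 12.5 nM, 442/435 at 25 nM, 439/465 at 50 nM, 428/418 at 75 nM, 388/386 at 100 nM, 287/271 at 150 nM, and 167/165 with 200 nM. The libraries at 200 nM were the lowest 2 and those at 150 nM the next, and the test gave -0.67 ± 0.036 (SE), adjusted p = 9.78e-22. Wdhd1, Tipin, Rpa3 and Chaf1b fell by 0.63, 0.50, 0.55 and 0.66. Dna2 stood apart in the list with -0.40 at 100 nM and -1.96 at 200 nM.

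**Figure D4:**
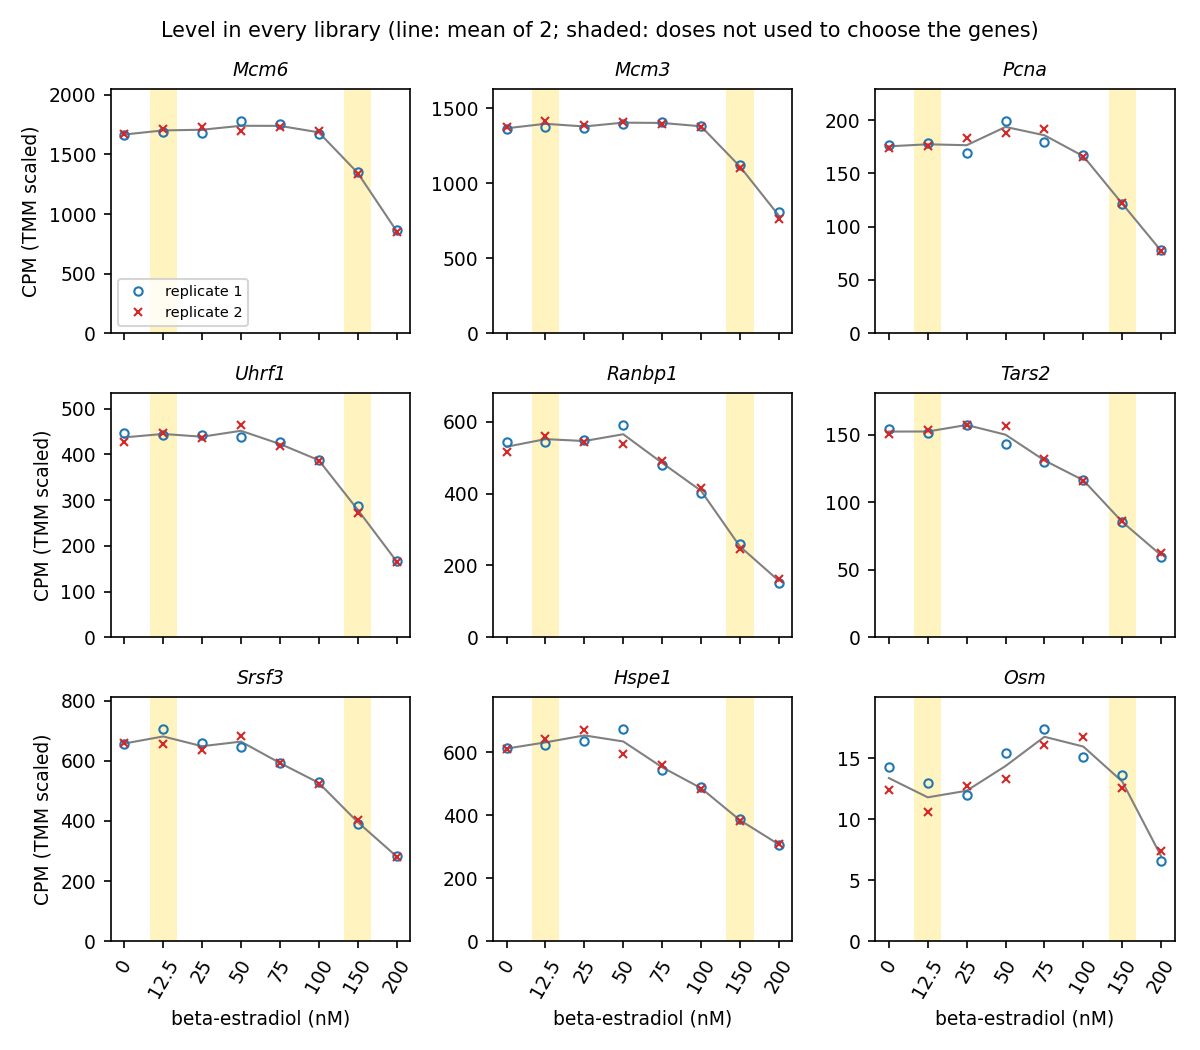
TMM-scaled CPM of 9 late-falling genes in all 16 libraries (circles and crosses: replicates 1 and 2; line: their mean) against the beta-estradiol dose, each axis starting at 0. On this scale Mcm6 and Mcm3 stay level to 100 nM, Ranbp1, Tars2, Srsf3 and Hspe1 are already lower at 75 and 100 nM, and Osm peaks at 75 nM.

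Promoter sequence was looked at for the replication genes because E2F factors are known to bind many of them. Windows from 250 bases before to 50 bases after the start site (RefSeq, GRCm38.p6) were found for 269 of the 335 genes, 17 of them replication genes. An E2F-type word (TTTCCCGC or TTTCGCGC or TTTGCCGC or TTTGGCGC, on either strand) stood in 7 of those 17 windows (41.2%). The share was 30.4% in the 23 windows of replication genes outside the set, 9.3% in all late-falling genes, 7.1% in those outside the replication list, 4.8% in all tested genes and 5.2% in those of at least 10 CPM at 0 nM. It was 5.0% in genes that had passed the 100 nM limit. A match describes these letters and shows no binding. The matches of 6 of the genes are printed below in windows of 30 bases, 5′ to 3′ on the gene's strand, with each E2F-type word in capitals.
Mcm6 upstream word pair: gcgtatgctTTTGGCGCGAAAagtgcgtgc
Mcm6 near the start: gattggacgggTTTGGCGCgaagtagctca
Mcm3 first word: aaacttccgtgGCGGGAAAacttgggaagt
Mcm3 next word: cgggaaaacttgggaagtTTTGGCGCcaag
Cdt1: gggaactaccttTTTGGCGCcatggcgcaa
Pola1: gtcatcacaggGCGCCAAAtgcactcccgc
Pole2: cgtcggcggtgGCGCCAAAtcgcgaacatg
Rfc3: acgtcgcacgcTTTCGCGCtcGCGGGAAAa
These windows lie at chr1:128359795-128359824, chr1:128359734-128359763, chr1:20820275-20820304, chr1:20820263-20820292, chr8:122568035-122568064, chrX:93632275-93632304, chr12:69228162-69228191, chr5:151651200-151651229 in the order shown. The capitals of the first Mcm6 window hold a pair of words that overlap on opposite strands, 110 bases upstream of the start. The Rfc3 window holds a word on each strand, and the others hold 1 word each. The words of Mcm3 begin 20 and 39 bases after the start, that of Cdt1 33 and that of Pole2 11 bases after it, and those of Pola1 and the first of Rfc3 138 and 10 bases before it. The same TTTGGCGC word appears in Mcm6, Mcm3 and Cdt1, and in reverse complement in Pola1 and Pole2. GATA words (AGATAA or AGATAG or TGATAA or TGATAG) stood in 17.5% of the late-falling genes' windows, 18.4% of all and 17.4% of those of genes of at least 10 CPM. The CCAAT word stood in 40.9%, 40.7% and 40.2%, and the ETS word CCGGAAG in 29.0%, 21.8% and 24.8%. The NRF1 word GCGCATGC stood in 10.4%, 6.3% and 7.1%, and the SP1 word GGGCGG in 69.9%, 66.5% and 68.4%. In replication genes the SP1 word stood in 88.2% of windows in the set and 52.2% of those outside it. The GATA words were among those that went the other way there, with 5.9% against 26.1%. E-box, YY1, CRE, KLF and CHR words were scanned as well.

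Enzymes of nucleotide supply gave 7 late-falling genes of 30 tested, while 16 had passed the 100 nM limit. Over the whole list 26 were lower and 3 higher at 150 than at 12.5 nM, with a median of -1.02. At 100 nM thymidine kinase Tk1 stood at 0.044 and thymidylate synthase Tyms at -0.092. Dut, which turns dUTP into the substrate of Tyms, stood at -0.37, and thymidylate kinase Dtymk, outside the list and named after its values were seen, at -0.28. Impdh2 and Gmps, which make guanine nucleotides, and Umps, which makes uridine nucleotides, stood at -0.35, -0.32 and -0.37. Tk1 stood at 136/134 CPM without beta-estradiol, 135/148 at 12.5 nM, 138/140.3 at 25 nM, 145/136 at 50 nM, 142/149 at 75 nM, 140.5/139 at 100 nM, 110.0/104 at 150 nM, and 69.6/66.2 with 200 nM. Only the 150 and 200 nM libraries fell outside the range of the lower doses, and the test gave -0.40 ± 0.052 (SE), adjusted p = 3.34e-09. Dut had the larger difference, from 336 ± 1.57 CPM (SD, n = 2) at 12.5 nM to 161 ± 2.78 at 150 nM (-1.06 ± 0.038 (SE), adjusted p = 6.61e-29).

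DNA repair gave 7 of 52 tested genes. Highest at 100 nM stood 3 of them: uracil glycosylase Ung, which removes uracil from DNA, at 0.14, the recombination motor Rad54l at 0.087 and Fanca of the crosslink repair complex at -0.038. Ung stood at 91.9/94.6 CPM without beta-estradiol, 95.6/99.9 at 12.5 nM, 102/107 at 25 nM, 115/119 at 50 nM, 108/108 at 75 nM, 101/104 at 100 nM, 68.5/69.7 at 150 nM, and 33.7/38.2 with 200 nM. Both 150 nM libraries lay below all libraries of the lower doses, and the 200 nM level was 0.386 times that at 0 nM. The test gave -0.50 ± 0.058 (SE), adjusted p = 1.18e-10. Fanca missed the threshold without 150 nM replicate 1 (-0.15 in place of -0.36, with adjusted p of 2.90e-06 to 0.287 over its 10 alternatives). The mismatch repair gene Msh6, the break-sensing nuclease Mre11a and the checkpoint clamp subunit Hus1 stood at -0.34, -0.35 and -0.28 at 100 nM and fell by 0.64, 0.65 and 0.70 between 12.5 and 150 nM. The whole list had 35 lower and 7 higher.

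Chromatin genes in the set were 3 of 30 histone and assembly genes (the histone chaperone subunit Ssrp1, Hmgb3 and the heterochromatin protein Cbx1) and 1 of 42 chromatin enzymes, the methyltransferase Setdb1. Hells, a remodeller needed for DNA methylation, had -1.92 at 200 nM and -0.92 ± 0.045 (SE), adjusted p = 1.26e-23 in the test. Of 35 erythroid regulators 3 were in the set, and Tfdp1 and E2f4 among them belong to the E2F pathway itself. E2f3, outside the list and named after its values were seen, was late-falling too. Tfdp1, the dimer partner of E2F proteins, read 135/126 CPM at 0 nM, 104/110.3 at 100 nM, 72.7/74.5 at 150 nM, and 54.7/47.6 with 200 nM. It fell by 0.85 between 12.5 and 150 nM (SE 0.058, adjusted p = 6.20e-18), and E2f4, an E2F member abundant in erythroid cells, by 0.44 (adjusted p = 1.16e-05). Tcf3, which pairs with TAL1, fell by 0.34 (adjusted p = 1.66e-05). In that list 12 genes were lower and 22 higher. None of 45 listed mitosis genes was in the set. It did hold Ercc6l and Anapc15, which act in mitosis but lie outside the list and were named after their values were seen. Of the 45 listed genes 6 were lower and 30 higher at 150 nM under TMM, and 17 lower and 22 higher under library size alone.

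Splicing and hnRNP genes made up 14 of 64 tested. At 100 nM their median was -0.31, and 1 of the 14 stood within 0.2 of 0 nM (Hnrnpab). Srsf3 stood at 657/658 CPM without beta-estradiol, 706/656 at 12.5 nM, 659.8/637 at 25 nM, 646/681 at 50 nM, 593/593 at 75 nM, 529.6/524 at 100 nM, 390.1/403 at 150 nM, and 283/282 with 200 nM. This splicing regulator was lower in both 75 nM libraries than in all libraries at 0 to 50 nM, and the test gave -0.78 ± 0.034 (SE), adjusted p = 2.25e-25. Core snRNP proteins Snrpd1 and Snrpg fell by 0.79 and 0.64, and Sf3a1, Sf3a3 and Sf3b3, which recognise the branch site, by 0.62, 0.64 and 0.56. Hnrnpa2b1 was the most abundant gene of the whole set at 0 nM, with 1880.4 ± 13.7 CPM (SD, n = 2), 1462 ± 6.28 at 100 nM and 1007 ± 9.04 at 200 nM. Lsm5 missed the threshold without 150 nM replicate 1 (adjusted p of 1.14e-06 to 0.0962 over its 10 alternatives). The whole list had 50 lower and 5 higher.

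Nuclear transport gave 5 of 42 tested genes, all of them of the Ran cycle or soluble carriers: the GTPase Ran, its binding protein Ranbp1, its importer Nutf2, the importin Kpnb1 and the exportin Xpo1. Ranbp1 stood at 544/517 CPM without beta-estradiol, 543/560.0 at 12.5 nM, 549.6/543 at 25 nM, 591/539 at 50 nM, 481/489.9 at 75 nM, 401/414 at 100 nM, 259/246 at 150 nM, and 152/162 with 200 nM. The 75 nM libraries lay below all at 0 to 50 nM, and the level at 200 nM was 0.296 times that at 0 nM. The test gave -1.12 ± 0.040 (SE), adjusted p = 4.44e-26 for Ranbp1 and -1.22 ± 0.14 (SE), adjusted p = 1.21e-10 for Nutf2. Both were among the 6 lowest values of the set when genes with provisional symbols were left out. Ran, at 1098 ± 43.5 CPM (SD, n = 2) at 12.5 nM and 679.8 ± 9.12 at 150 nM, fell by 0.69. Rcc1, the exchange factor that charges Ran, had passed the limit at 100 nM (-0.68). None of the nucleoporins in the list was late-falling. The nucleoporin Seh1l, outside the list and named after its values were seen, was, with -0.30 at 100 nM and -0.61 ± 0.050 (SE), adjusted p = 2.47e-15 in the test. Of the whole list 36 were lower and 0 higher.

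Translation and tRNA genes were unevenly represented. Ribosome biogenesis gave 1 of 42 tested genes, the snoRNP protein Gar1, since 36 had passed the 100 nM limit. That list does not hold every ribosome assembly gene. Bms1, Utp18 and Esf1, outside it and named after their values were seen, were late-falling. Of 43 cytosolic translation factors 5 were in the set (Eef1g, Eif1ax, Eif2b3, Eif2s2 and Eif4a1) and of 22 cytosolic tRNA synthetases 4 (Farsb, Gars, Rars and Yars). The factors fell by 0.82, 0.71, 0.83, 0.74 and 0.48 in that order between 12.5 and 150 nM and the synthetases by 0.81, 0.75, 0.50 and 0.91. The factor list had 29 lower and 10 higher and the synthetase list 18 and 2. A second look, with families chosen after the values were seen, found 11 of 46 tRNA processing and modification genes and 6 of 19 mitochondrial tRNA synthetases. The latter included Cars2, Ears2, Rars2, Tars2 and Vars2, which charge tRNAs within mitochondria. Tars2 stood at 154/151 CPM without beta-estradiol, 151/154 at 12.5 nM, 157/157 at 25 nM, 144/157 at 50 nM, 130.3/132 at 75 nM, 117/116 at 100 nM, 85.2/85.9 at 150 nM, and 59.3/62.2 with 200 nM. Both 150 nM libraries lay below all libraries of the lower doses, and the test gave -0.84 ± 0.051 (SE), adjusted p = 6.14e-20. Among the tRNA processing genes were Pop1, Rpp30 and Rpp38 of the RNase P and MRP enzymes, which trim the 5′ end of tRNAs and process ribosomal RNA, and Elac2, which trims the 3′ end. These fell by 0.88, 0.78, 0.61 and 0.62 between 12.5 and 150 nM. Other families added in the same way were the cyclophilins (4 of 14, Ppia, Ppie, Ppih and Ppil1) and RNA polymerase II and III subunits (4 of 22). Since these families were picked for their members, their counts are a description only.

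Mitochondrial ribosome and import genes were 9 of 85: Mrpl3, Mrpl17, Mrpl36, Mrpl40 and Mrps28 of the ribosome, Tomm20 of the outer and Timm23 of the inner membrane translocase, and the small chaperones Timm9 and Timm10 that work together between the membranes. The 9 stood between -0.39 and -0.26 at 100 nM and all fell between 12.5 and 150 nM, with a median difference of -0.78. Timm9 went from 101 ± 9.21 to 55.2 ± 3.44 CPM (SD, n = 2). Of the list 71 were lower and 4 higher. Oxidative phosphorylation gave 3 of 75 (4.0%), the complex I proteins Ndufs1, Ndufs7 and Ndufab1, and the citric acid cycle 2 of 24, Fh1 and Pdha1. Chaperones gave 6 of 46 (Calr, Hspa14, Hspe1, Pfdn2, Pfdn4 and Stip1). Hspe1 stood at 614/609 CPM without beta-estradiol, 622/641 at 12.5 nM, 636/671 at 25 nM, 674/594 at 50 nM, 545/559.7 at 75 nM, 488/484 at 100 nM, 387/382 at 150 nM, and 306/308 with 200 nM. This mitochondrial co-chaperonin was lower in both 75 nM libraries than in all libraries at 0 to 50 nM, with -0.72 ± 0.040 (SE), adjusted p = 3.61e-16 in the test. None of the 38 proteasome, 21 one-carbon and amino acid supply and 25 cholesterol and fatty acid synthesis genes tested was late-falling. These counts cover the listed genes only. The proteasome assembly gene Psmg2 and the fatty acid elongation gene Elovl5, outside the lists and named after their values were seen, were late-falling. Glycolysis gave 1 of 26 (Pgk1) and the cytoskeleton 1 of 38 (Tuba1b).

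**Figure D5:**
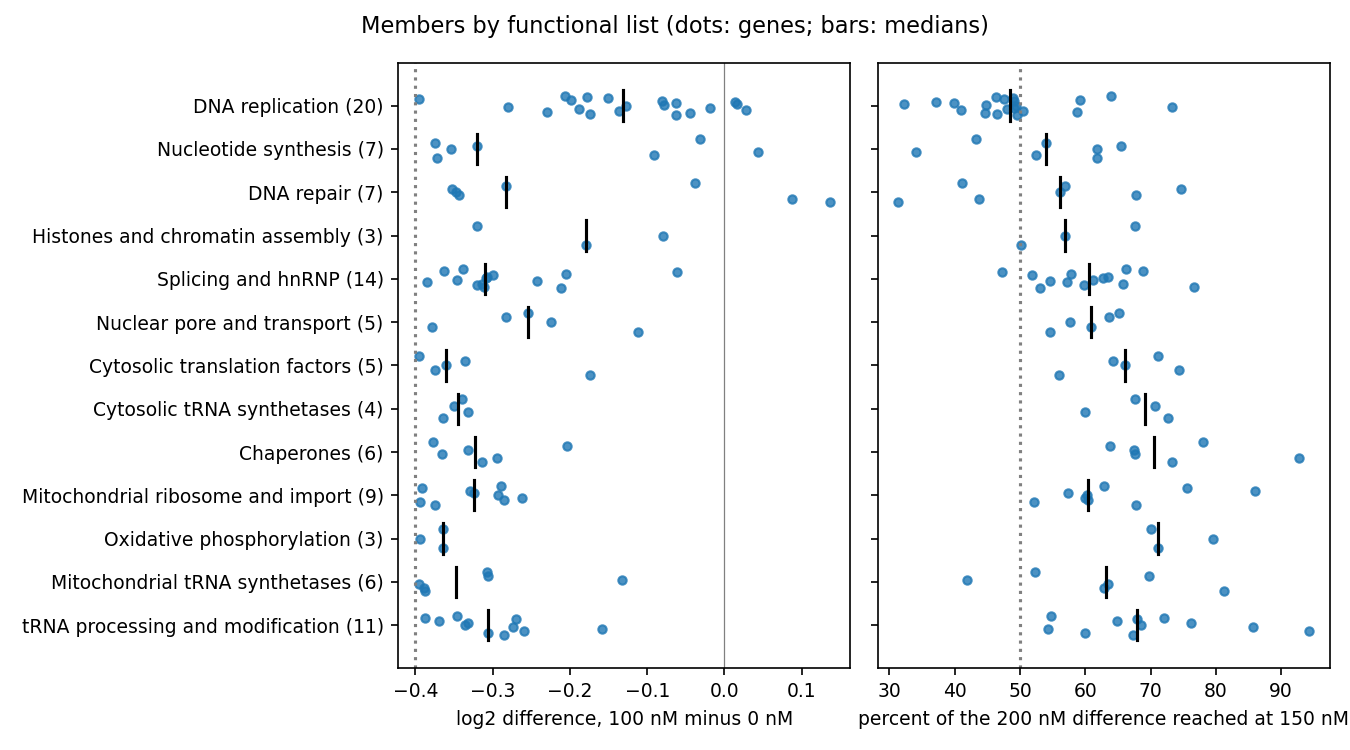
Late-falling genes by functional list: log2 difference at 100 nM from 0 nM (left) and percent of the 200 nM difference reached at 150 nM (right), with dots for genes and bars for medians; the lowest 2 lists were added after the values were seen. DNA replication genes have medians of -0.13 and 48.5%, splicing genes -0.31 and 60.5%, and the chaperones reach 70.5%.

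The shape of the fall differed between genes in the 150 nM libraries. The median gene had covered 60.2% of its 200 nM difference at 150 nM, with a range of 3.03 to 113%. Of the 335, 269 had covered at least 50%, 35 at least 75% and 2 under 25% (Osm and Tmem194b). In 333 the mean at 200 nM was lower still than at 150 nM, the exceptions being Pdss2 and Piezo1, named after their values were seen. The step from 100 to 150 nM was the larger for 127 genes and that from 150 to 200 nM for the rest. These shares use the 200 nM and 0 nM values that chose the genes, so they carry no test. No dose above 100 nM held a gene's highest mean. The highest mean was at 0 nM for 59 genes, 12.5 nM for 109, 25 nM for 83, 50 nM for 67, 75 nM for 15 and 100 nM for 2.

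Genes with provisional symbols, such as those in Gm or Rik, were left out of the rankings here. Among these, Gm11974 stood at -2.54 at 200 nM with library size alone, where Dnahc8 stood at -3.29 and Galk1 at -2.43. The ranking itself is on the TMM scale. Of its 8 genes with the largest difference at 200 nM, Dna2 and Dut were in a fixed list, and Hells, given above, and 5 others were not. The axonemal dynein gene Dnahc8 stood at -2.92 at 200 nM, the galactose kinase Galk1 at -2.05, the secreted phospholipase gene Pla2g12a at -2.01, the sulphate transporter Slc26a1 at -2.01 and the fatty acid activating enzyme Acsl3 at -1.89. Dnahc8 read 22.6/22.8 CPM at 0 nM, 17.8/17.6 at 12.5 nM, 17.8/17.5 at 100 nM, 5.62/8.08 at 150 nM, and 3.04/2.71 with 200 nM. The test gave -1.42 ± 0.16 (SE), adjusted p = 6.05e-11 for it. Plekha8, a lipid transfer protein gene, had the lowest difference between 150 and 12.5 nM, -1.71 ± 0.17 (SE), adjusted p = 3.62e-12, at only 13.1 ± 0.314 CPM (SD, n = 2) at 12.5 nM. Dnahc8 and Nutf2 were next, and then Dlc1, a GTPase-activating protein gene, with -1.18 ± 0.17 (SE), adjusted p = 4.55e-08. Among abundant genes, the nucleic acid binding protein gene Cnbp fell by 0.70 from 1888 ± 30.3 CPM and the RNA helicase gene Ddx39 by 0.69 from 736 ± 20.5 CPM.

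At the other end, 5 genes passed the threshold in neither direction at 150 nM: Osm, Tmem194b, Usp1, Cbx6 and Wdr76, of which the last 2 were named for this. Osm stood at 14.3/12.4 CPM without beta-estradiol, 12.99/10.6 at 12.5 nM, 11.96/12.7 at 25 nM, 15.4/13.3 at 50 nM, 17.4/16.1 at 75 nM, 15.1/16.8 at 100 nM, 13.6/12.5 at 150 nM, and 6.54/7.37 with 200 nM. This cytokine gene, a known target of erythropoietin signalling, had its highest means at 75 and 100 nM, and its 12.5 and 150 nM libraries overlapped (0.16 ± 0.14 (SE), adjusted p = 0.299). Tmem194b stood at 15.2/14.1 CPM without beta-estradiol, 12.4/17.7 at 12.5 nM, 14.8/15.2 at 25 nM, 16.3/12.1 at 50 nM, 15.00/14.5 at 75 nM, 15.2/15.4 at 100 nM, 16.4/10.5 at 150 nM, and 7.46/4.83 with 200 nM. Its 12.5 and 150 nM libraries overlapped as well (-0.12 ± 0.21 (SE), adjusted p = 0.616), at low counts, and the sign turned when 12.5 nM replicate 2 or 150 nM replicate 2 was left out (0.17 and 0.12). For Osm the sign turned with library size alone (-0.096). Usp1, the enzyme that removes ubiquitin from Pcna, gave -0.24 ± 0.12 (SE), adjusted p = 0.0726, and passed without 150 nM replicate 1 (-0.49), with library size alone (-0.49) and in 2 other alternatives (adjusted p of 5.31e-04 to 0.652 over its 10 alternatives). The kinase gene Pask passed with -0.24 ± 0.073 (SE), adjusted p = 0.00288. Relt passed with -0.20 ± 0.074 (SE), adjusted p = 0.0135, and missed without 12.5 nM replicate 2 or without 150 nM replicate 2 (adjusted p of 5.31e-07 to 0.117 over its 10 alternatives). Ermp1 passed with -0.27 ± 0.12 (SE), adjusted p = 0.0426, and missed without 12.5 nM replicate 2 or 150 nM replicate 1, with DESeq2 and with the replicate number as a block, where it was 0.0529 (adjusted p of 2.14e-04 to 0.336 over its 10 alternatives).

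By position, all 335 genes were found in the annotation (GENCODE, GRCm38) and 331 are protein-coding. Their median exon length was 3873 bases, against 4398 for all tested genes and 4652 for those of at least 10 CPM at 0 nM. An exon overlapped a gene on the opposite strand in 73 (21.8%, against 18.2% of all tested genes and of those of at least 10 CPM), and since strand was not kept, reads of such pairs cannot be told apart. None of the 20 replication genes had such an overlap. A divergent neighbour starting within 1000 bases on the other strand was present for 85 genes (25.4%, against 19.7% and 21.0%), in 84 pairs, of which 1 joined 2 late-falling genes. Of the other 83 partners 36 were lower, 31 higher and 16 in neither direction at 150 nM. Among all genes tested 36.4% were lower and 38.1% higher. Mcm4 and the DNA repair kinase gene Prkdc start 466 bases apart, with -0.44 and -0.13 (adjusted p of Prkdc = 0.0908).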

How the data were processed

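The authors deposited whole-number read counts per gene symbol for the 16 libraries. Per the submitters' processing notes, reads went through bcl2fastq and STAR on mm10 (GRCm38). How multiply mapped reads were counted is not stated, so genes with near-identical copies, such as Ppia with its processed pseudogenes, are uncertain. Genes were kept with filterByExpr by dose, scaled by TMM and fitted by dose with edgeR 4.0.16 (R 4.3.3) in a robust quasi-likelihood model of all 16 libraries. P-values of 150 against 12.5 nM were adjusted by Benjamini-Hochberg over 10080 genes and called under 0.05. The standard error is the size of the log2 difference divided by the square root of F. CPM values are TMM-scaled. The depth of 9393156 to 15802510 counts limits precision for genes near 10 CPM. The 2 replicates of each dose differed by more than sampling noise (chi-square over genes). Scripts were tested on simulated data.

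The genes and lists were chosen with earlier results of these data known. Genes named were those in a functional list, the 8 with the lowest 200 nM difference, the 8 highest at 12.5 nM, the 6 lowest and 6 highest in the test, and the 3 nearest each limit on either side. Genes with provisional symbols, such as those in Gm or Rik, were left out of the rankings of 8 and 6. Others named, mainly as complex partners or in the 4 families added later, were picked after their values were seen. Alternatives were DESeq2 1.42.0, other scalings, no filter, fewer libraries, a replicate block and other limits. Some genes of the set are counted but not reported here by name.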

Additional observations from a re-analysis of the deposited data

How the results depend on the processing

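The count of genes chosen moved with the limits: 171 with a plateau within 0.3, 560 within 0.5, 150 with a 200 nM difference of at least 1.0, and 72 with a plateau within 0.2, a limit chosen after seeing the data. It ran from 322 to 361 when each of the 12 libraries whose means the rule uses was left out. With library size alone in the rule it was 428, with other genes for the most part. The genes chosen also moved with single libraries. Without 0 nM replicate 1 in the rule 281 of the 335 stayed (83.9%), and without 0 nM replicate 2 300 stayed (89.6%). Of the 335, the number lower at 150 nM was 328 with DESeq2, 330 with RLE scaling, 333 with library size alone, 332 without the filter, 332 with the 4 libraries alone and 322 to 330 with each of those 4 left out. With the replicate number as a block it was 330, and Ermp1 was the named gene whose call it changed. The numbers do not pair the samples: the correlations of same-numbered deviations between doses ran from -0.058 to 0.096. Osm turned to -0.096 with library size alone. Leaving out 1 library moved Tmem194b between -0.52 and 0.17, and it turned to 0.17 and 0.12 without 12.5 nM replicate 2 and without 150 nM replicate 2. Over the alternatives, the values of 108 named genes kept direction and call in 1065 cases, lost the call in 8, gained it in 4 and turned in 3.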
